A study of Mus musculus with 6 samples.

Results

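Genes of 10 ETS transcription factors were followed in mouse back epidermis with and without Spry1. They were chosen by symbol and fall into 3 sets: the PEA3 class (Etv1, Etv4, Etv5), the epithelial class (Ehf, Elf3, Elf5, Spdef), and Ets1, Ets2 and Elk3. All 10 were found among the 54532 genes of the deposited table, which marks 26 genes as ETS factors in all. Of the 10, 7 reached a mean of 1 FPKM over the samples and were tested, and Etv1, Elf5 and Spdef lay below that level and are given as values. FPKM divides the sequenced fragments of a gene by its length in kilobases and by a read total for the sample. Levels of different genes can therefore be set side by side.

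Both groups carried Spry1flox/flox and received tamoxifen by oral gavage in corn oil for 4 weeks, at 0.1 mg per g given 4 times per week. The 3 control samples had no Cre, and the 3 knockout samples carried K14-Cre-ERT2, a Cre recombinase that tamoxifen activates and that the keratin 14 promoter drives in basal keratinocytes. There was no group with Cre and intact Spry1, so effects of Cre and of losing Spry1 cannot be told apart. Animal ages are not given here, and the labels do not say that each sample came from a separate animal, so a p-value here reflects the spread among samples, which may be technical.

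ETS factors bind DNA through a shared winged-helix domain that reads a GGAA core. Many of them are end points of receptor tyrosine kinase signalling: ERK phosphorylates Ets1, Ets2, the PEA3 factors and the ternary complex factors such as Elk3, and it relieves the repression of the PEA3 genes by Capicua. Spry1 encodes Sprouty1, an inhibitor of that signalling that is itself induced by it. The epithelial class is known for its part in the differentiation of stratified and glandular epithelia.

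Of the 7 genes tested, Elf3, Etv4, Ehf, Elk3 and Etv5 rose in the knockout, Ets2 fell and Ets1 did not pass. The test was limma on log2(FPKM + 1), with p-values adjusted by Benjamini-Hochberg over all 12629 genes tested and a threshold of 0.05. Over all these genes, 54.0% were called in either direction, 29.6% higher and 24.4% lower, so a call by itself is common in this comparison. Dividing each sample by its FPKM sum (TPM scaling) changed that split to 2055 higher and 4470 lower genes, from 3736 and 3079. The size of the changes was less common: 16.1% of all tested genes were called with a log2 fold change of at least 1 in either direction, and the 5 risen ETS genes were among them. The median log2 fold change was 1.83 over the 7 genes and 0.03 over all tested genes. Elf3 reached the tested set through the knockout samples alone, its control mean being under 1 FPKM, so the median and the counts describe the 7 genes and support nothing further.

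**Figure D1:**
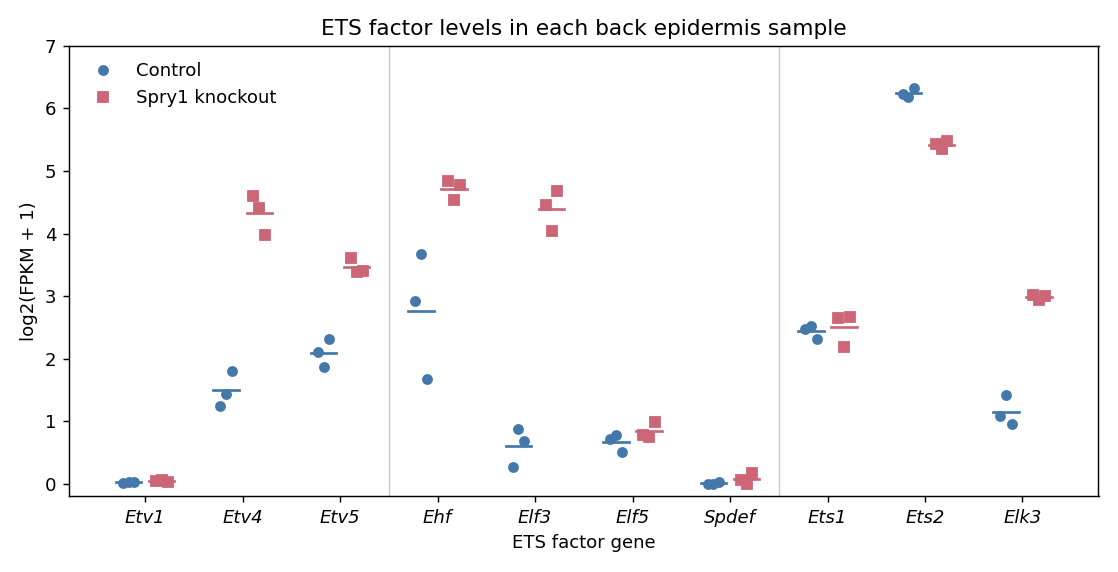
Levels of the 10 ETS factor genes as log2(FPKM + 1) in each of the 3 control samples (circles) and 3 knockout samples (squares), with horizontal lines at the group means. The knockout samples lie above all controls for Etv4, Etv5, Ehf, Elf3 and Elk3 and below all controls for Ets2, and the groups overlap for the other 4 genes, where 64.2% of all tested genes show no overlap.

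Spry1 itself was low in each knockout sample, with 1.06, 1.49 and 1.28 FPKM against 25.8, 28.2 and 34.4 FPKM in the controls. The keratinocyte genes Krt14 and Krt1 averaged 2706 and 782 FPKM in the controls, which fits the labelled tissue. All 8 endothelial markers averaged under 1 FPKM in both groups. Keratinocyte markers themselves differed between the groups, in both directions. Of 7 basal markers 2 were higher and 4 lower in the knockout, and the same counts held for 7 suprabasal markers. Krt14 and Krt1 rose to 11064 and 3009 FPKM, whereas Krt15 fell from 3323 to 779 FPKM and Dsg1a from 365 to 94.5 FPKM. The reads recovered from the FPKM values numbered 18383324 to 21024714 per sample. Markers of other cell types differed as well: of 8 melanocyte markers 7 were higher in the knockout, and of 9 T cell markers 5 were lower and 1 higher. All 5 tested muscle markers were lower. Over all tested genes, 29.6% were called higher and 24.4% lower. The melanocyte markers summed to 11.2 to 14.5 FPKM in the controls and 215 to 219 FPKM in the knockouts. The neutrophil list summed to 4.03 to 9.69 and 417 to 1128 FPKM, nearly all from S100a8 and S100a9, which keratinocytes make too. The neutrophil receptor genes Cxcr2 and Csf3r averaged 0.0527 and 0.0600 FPKM in the controls, against 3.53 and 0.387 FPKM in the knockouts, without overlap. Ly6g, Mpo and Elane were at 0 or under 0.1 FPKM in every sample. The part of these cells in the ETS levels was not tested. In bulk epidermis fewer cells of a type and less RNA per cell cannot be told apart.

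Promoter windows in the RefSeq table for GRCm38.p6, each from 250 bases before to 50 bases after an annotated start, matched 7 of the 10 genes, with 10 windows in all. Etv4, Ehf and Ets1 had no entry. A window of Etv5 is shown for its repeats of the letters TGAATG, which occur in sites described for Capicua, that of Elf3 because this gene rose most, and that of Ets2 as the gene that fell. Capitals mark TGAATG on either strand (read as CATTCA on the other strand) in Etv5, and GGAA on either strand (TTCC on the other) in Elf3 and Ets2. The windows are chr16:22438319-22438618 on the minus strand for Etv5, chr1:135258423-135258722 on the minus strand for Elf3 and chr16:95702157-95702456 on the plus strand for Ets2.
Etv5: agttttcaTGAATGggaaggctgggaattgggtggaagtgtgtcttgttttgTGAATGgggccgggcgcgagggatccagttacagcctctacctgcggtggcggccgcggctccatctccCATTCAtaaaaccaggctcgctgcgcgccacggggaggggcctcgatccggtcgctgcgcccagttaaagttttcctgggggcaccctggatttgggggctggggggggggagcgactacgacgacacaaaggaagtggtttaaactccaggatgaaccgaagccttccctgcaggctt
Elf3: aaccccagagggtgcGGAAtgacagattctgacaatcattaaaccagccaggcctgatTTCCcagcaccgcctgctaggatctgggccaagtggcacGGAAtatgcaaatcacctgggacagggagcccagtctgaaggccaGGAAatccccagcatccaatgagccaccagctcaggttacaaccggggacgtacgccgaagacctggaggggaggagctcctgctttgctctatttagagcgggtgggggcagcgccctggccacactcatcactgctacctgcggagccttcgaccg
Ets2: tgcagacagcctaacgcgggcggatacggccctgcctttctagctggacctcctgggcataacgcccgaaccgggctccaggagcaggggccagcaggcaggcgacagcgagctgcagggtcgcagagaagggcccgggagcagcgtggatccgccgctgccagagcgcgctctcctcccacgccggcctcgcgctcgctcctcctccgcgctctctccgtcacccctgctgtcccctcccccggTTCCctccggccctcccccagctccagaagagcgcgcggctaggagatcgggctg
TGAATG was chosen after the Etv5 letters had been seen. It occurred 3 times in this Etv5 window, at positions -242, -198 and -129 from the start, and not in the other window of Etv5 or in those of the other 6 genes. Among all 32851 windows of this length, 12.7% held TGAATG at least once and 0.17% at least 3 times. TCAATG, the other spelling of that core, was in none of the 10 windows, against 8.67% of all windows. GGAA occurred 4 times in the Elf3 window and once in that of Ets2, and 96.0% of all windows hold it, so it does not mark these genes out. CCGGAA and the AP-1 motif TGANTCA, searched on both strands as well, were in none of the 10 windows, against 14.9% and 7.81% of all windows. The Ets2 window was richer in G and C than most, at 71.7% against a median of 52.7% over all windows, and that of Elf3 held 59.0%. These matches describe letters and show no binding.

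Gene positions below are from GENCODE M21 on GRCm38. Etv4, of the PEA3 class (chromosome 11, 101769742 to 101785371, minus strand), codes for a factor that acts downstream of FGF and EGF receptors in developing epithelia. It stood at 1.38, 1.69 and 2.48 FPKM in control epidermis and at 23.2, 20.2 and 14.7 FPKM in knockout epidermis. The lowest knockout sample stood far above the highest control. The group means were 1.85 ± 0.567 and 19.4 ± 4.29 FPKM (SD, n = 3 each), a ratio of 10.5. The log2 fold change was 2.83 ± 0.20 (SE; adjusted p in limma 8.69e-05), and only 100 of the 12629 tested genes had a larger one.

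Etv5 (chromosome 16, 22381309 to 22439719, minus strand), its close relative, started from a higher control level and rose less. Its levels were 3.30, 2.64 and 3.98 FPKM in control epidermis, against 11.2, 9.45 and 9.58 FPKM after deletion, again without overlap. The log2 fold change was 1.37 ± 0.13 (SE; adjusted p in limma 0.000277), and the ratio of the means was 3.05. The order of the pair was therefore turned round: the ratio of Etv4 to Etv5 within a sample was 0.417, 0.641 and 0.624 in the controls and 2.07, 2.13 and 1.54 in the knockouts. Such a ratio within a sample is free of the scaling between samples.

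Etv1 (chromosome 12, 38779380 to 38870484, plus strand), the remaining gene of the class, was close to absent. It had 3, 6 and 6 recovered reads in the controls and 7, 9 and 5 in the knockouts, over 13296 bases of exon. These correspond to at most 0.0390 FPKM in any sample. The groups overlapped, with 15 reads over the controls and 21 over the knockouts, and the ratio of the FPKM means was 1.46. It was not tested against the ratios of Etv4 and Etv5.

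In the epithelial class Elf3 (chromosome 1, 135253575 to 135258568, minus strand), which codes for the factor ESE-1 of differentiating epithelia, went from under 1 FPKM to the level of the abundant ETS genes. It read 0.198, 0.839 and 0.602 FPKM in the controls, from 8, 34 and 26 reads, and 21.1, 15.5 and 24.7 FPKM in the knockouts, from 938, 597 and 902 reads. All knockout samples were at least an order of magnitude above all controls. The means of 0.546 ± 0.324 and 20.4 ± 4.64 FPKM (SD, n = 3 each) stood in a ratio of 37.4. The log2 fold change of 3.79 ± 0.21 (SE; adjusted p in limma 3.99e-05) understates this ratio, because 1 is added to each value before the logarithm, and it was exceeded by 53 tested genes. Antisense transcript Gm26642 shares 162 of the 2217 exon bases of Elf3, and it averaged 0.494 FPKM in the controls and 0.262 FPKM in the knockouts.

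Ehf (chromosome 2, 103263433 to 103303278, minus strand), which codes for ESE-3, was expressed in control epidermis already, at levels that varied widely between samples. The control samples held 6.59, 11.7 and 2.21 FPKM and the knockout samples 27.5, 22.2 and 26.5 FPKM. The groups did not overlap, but the control SD of 4.76 around a mean of 6.84 FPKM gave Ehf the widest interval of the 7 genes. Its log2 fold change was 1.96 ± 0.45 (SE, 95% interval 0.88 to 3.04), with a limma adjusted p of 0.0100. Without Control replicate 3, the lowest control, the log2 fold change was 1.42 and the adjusted p 0.00305. The 8 sebaceous gland markers summed to 198, 283 and 86.8 FPKM in Control replicates 1, 2 and 3, the same order as Ehf. In the knockouts they summed to 179, 229 and 273 FPKM, and a single gene held most of each sum. The part of these cells in the Ehf level was not tested. The ratio of Elf3 to Ehf within a sample was 0.0300, 0.0716 and 0.272 in the controls and 0.766, 0.698 and 0.935 in the knockouts, so Ehf remained the more abundant of the pair in every sample.

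Elf5 (chromosome 2, 103411688 to 103450989, plus strand), whose product ESE-2 is best known from mammary and other glandular epithelia, stayed low in both groups. It stood at 0.644, 0.707 and 0.419 FPKM in control epidermis and at 0.711, 0.686 and 0.972 FPKM in knockout epidermis, from 48 to 94 reads per sample, and the groups overlapped. Elf5 and Ehf are neighbours on chromosome 2, transcribed away from each other with 108 kb and no protein-coding gene between them. Ehf rose beside it, whereas the Elf5 means were 0.590 and 0.790 FPKM. Whether the genes of this pair responded differently was not tested. Spdef (chromosome 17, 27714352 to 27728955, minus strand), a factor of secretory epithelia, had 0, 0 and 1 reads in the controls and 2, 0 and 5 in the knockouts, too few for any comparison.

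Ets2 (chromosome 16, 95702075 to 95721051, plus strand) was the most abundant ETS gene in all 6 samples and the single one of the 10 that fell. Its product is a direct target of ERK phosphorylation. It stood at 73.9, 72.1 and 79.1 FPKM in control epidermis and at 42.3, 39.8 and 43.5 FPKM in knockout epidermis. The spread within each group was small, with means of 75.0 ± 3.64 and 41.9 ± 1.90 FPKM (SD, n = 3 each), and the groups stood well apart. The log2 fold change was -0.83 ± 0.08 (SE; adjusted p in limma 0.000264). Under TPM scaling, which moves the median of all tested genes to -0.22, it was -1.11.

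Elk3 (chromosome 10, 93247414 to 93311135, minus strand) codes for a ternary complex factor that binds with serum response factor and represses until ERK phosphorylates it. It stood at 1.11, 1.68 and 0.947 FPKM in control epidermis and at 7.07, 6.66 and 7.04 FPKM in knockout epidermis. The 3 knockout values lay close together, and all were above the controls. The log2 fold change was 1.83 ± 0.13 (SE; adjusted p in limma 9.74e-05), a ratio of the means of 5.55. Of its 4550 exon bases, 316 are shared with Cdk17 on the opposite strand, which averaged 2.24 FPKM in the controls and 5.21 FPKM in the knockouts. Whether the libraries keep the strand is not given here, so the reads of the shared stretch cannot be assigned to either gene.

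Ets1 (chromosome 9, 32636221 to 32757820, plus strand), a factor abundant in T cells and endothelium and found also in basal keratinocytes, stood at 4.54, 4.75 and 3.96 FPKM in control epidermis and at 5.27, 3.56 and 5.35 FPKM in knockout epidermis. The groups overlapped, and both the lowest and the highest value were knockout samples. The log2 fold change was 0.07 ± 0.15 (SE, 95% interval -0.29 to 0.42), with a limma adjusted p of 0.731. The interval excludes a rise of the size seen for Etv5. The T cell markers summed to 71.3 to 101 FPKM in the controls and 35.3 to 71.0 FPKM in the knockouts. They did not move as a set: of 9 markers 5 were called lower, 1 was called higher and 3 were not called. The part of these cells in the Ets1 level was not tested.

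**Figure D2:**
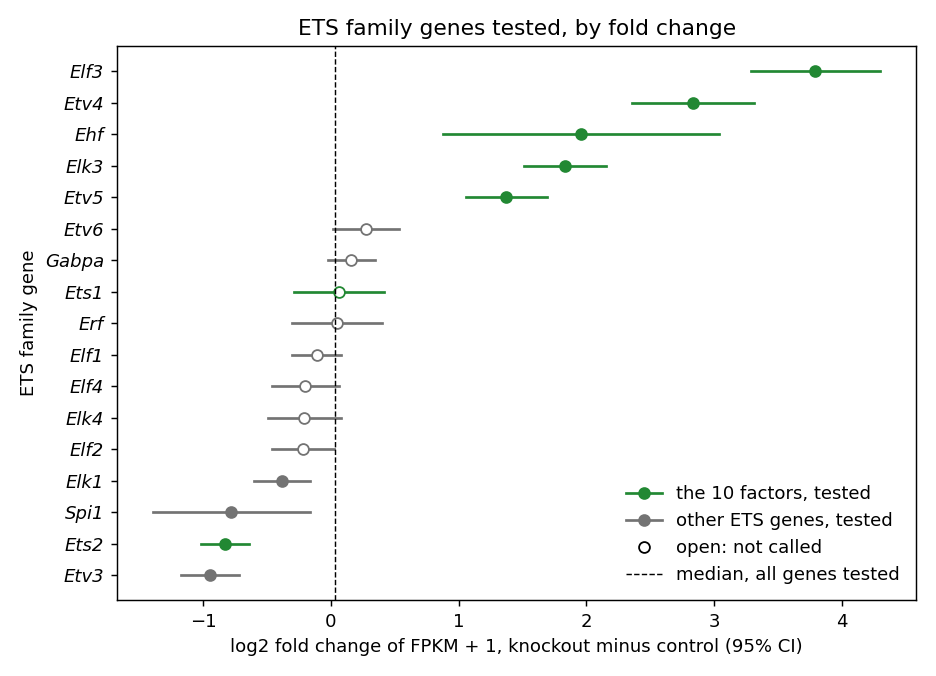
Log2 fold change of FPKM + 1, knockout minus control, with its 95% confidence interval from limma, for the 17 ETS family genes tested, where n = 3 samples a group. Elf3, Etv4, Ehf, Elk3 and Etv5 stand apart on the right, between 1.37 and 3.79, and the other ETS genes lie between -0.95 and 0.27.

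The remaining 16 genes of the family held no call in the upward direction. Of 10 tested, none was called higher by limma and 3 were called lower, against 29.6% and 24.4% of all tested genes, and their median log2 fold change was -0.20. At an unadjusted p under 0.05 there was 1 higher gene, and limma-voom on recovered reads called none higher. Without Control replicate 3 limma called 2 higher, Erf and Etv6. Etv3, which codes for a repressor, stood at 17.9, 17.2 and 17.3 FPKM in control epidermis and at 8.99, 9.37 and 7.50 FPKM in knockout epidermis. The groups were well separated, with a log2 fold change of -0.95 ± 0.10 (SE; adjusted p in limma 0.000317). Elk1, a ternary complex factor like Elk3, fell from a mean of 3.89 to 2.76 FPKM (log2 fold change -0.38, adjusted p in limma 0.0119).

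Spi1, which codes for PU.1, a factor of myeloid and Langerhans cells, stood at 8.001, 10.4 and 8.45 FPKM in control epidermis and at 5.04, 2.91 and 7.15 FPKM in knockout epidermis (log2 fold change -0.78, adjusted p in limma 0.0393). That call was lost without Control replicate 1, 2 or 3 (limma adjusted p of 0.0669, 0.109 and 0.0645) and without Spry1_KO replicate 1 or 2 (0.0830 and 0.0615). The same held with no filter, a filter at 0.1 FPKM and a replicate block (limma adjusted p of 0.0864, 0.0511 and 0.0709). Langerhans cell gene Cd207 fell beside Spi1 from 47.5 to 9.06 FPKM, whereas macrophage gene C1qb rose from 2.17 to 29.3 FPKM. On the list of 9 Langerhans cell and macrophage markers 5 fell and 4 rose, and their sum was 920 to 1514 FPKM in the controls and 352 to 578 FPKM in the knockouts. The part of these cells in the Spi1 level was not tested.

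The repressors Erf and Etv6 and the housekeeping factor Gabpa did not pass. Erf, which ERK keeps out of the nucleus, averaged 30.5 ± 6.81 FPKM in the controls and 31.1 ± 0.820 FPKM in the knockouts (SD, n = 3 each), the latter 3 samples lying within the control range. Etv6 had a log2 fold change of 0.27 (95% interval 0.02 to 0.53; adjusted p in limma 0.0697) and Gabpa one of 0.16 (adjusted p in limma 0.124). Elf1, Elf2, Elf4 and Elk4 had log2 fold changes from -0.22 to -0.11, none of which passed. Gabpa shares 397 exon bases with Atp5j on the opposite strand.

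The ETS genes kept their first 2 places and changed order below them. In the controls Ets2 (75.0 FPKM) was followed by Erf (30.5), Etv3 (17.5), Elf1 (16.96) and Gabpa (11.9), with Ehf 11th, Etv5 14th, Etv4 15th and Elf3 19th of the 26 genes by mean. The ranges of Etv3 and Elf1 overlapped, and so did those of each pair of neighbours from Gabpa down to Elf2. In the knockouts Ets2 (41.9 FPKM) and Erf (31.1) were followed by Ehf (25.4), Elf3 (20.4) and Etv4 (19.4). The ranges of Ehf and Elf3, of Elf3 and Etv4 and of Etv4 and Elf1 overlapped across samples. Within each knockout sample Ehf lay above Elf3, whereas Elf3 and Etv4, and Etv4 and Elf1, changed places between samples. Etv5 stood 9th and Elk3 13th.

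As a share of all ETS family FPKM in the same sample, Ets2 made up 34.8%, 33.7% and 34.1% in the controls and 16.9%, 17.7% and 17.8% in the knockouts. The PEA3 class made up 2.21%, 2.04% and 2.79% in the controls and 13.7%, 13.2% and 9.98% in the knockouts. Ehf and Elf3 together made up 3.20%, 5.87% and 1.21% in the controls and 19.3%, 16.8% and 21.0% in the knockouts. The sum over the family changed little beside these shifts, at 212, 214 and 232 FPKM in control samples, against 251, 225 and 244 FPKM in knockout samples, with overlapping ranges. Unlike the shares, these sums depend on the scaling between samples.

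**Figure D3:**
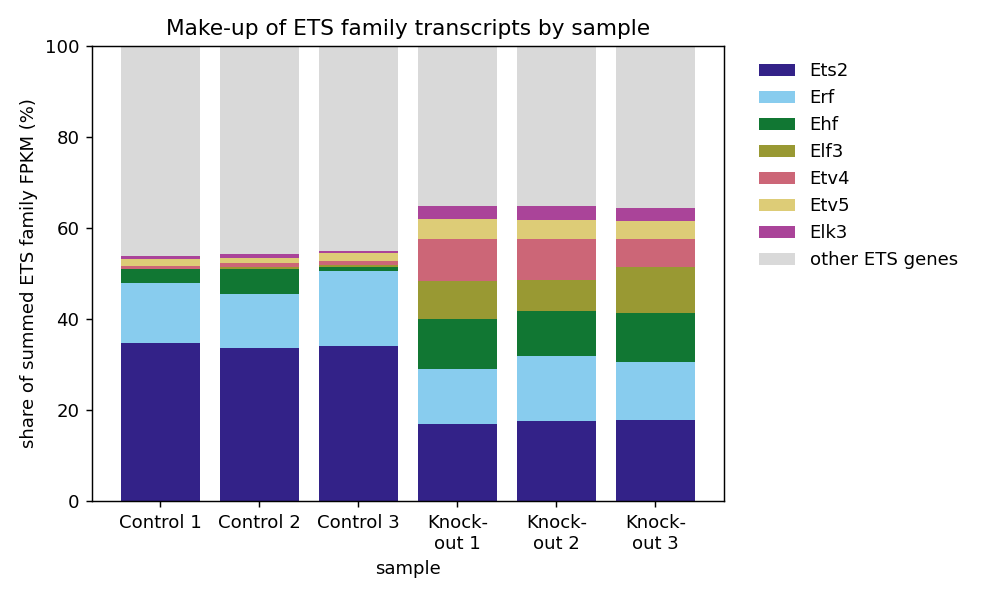
Share of the summed FPKM of the 26 ETS family genes (percent, stacked bars) held by 7 named genes and by the others, in each of the 6 samples. The Ets2 share is between 33.7% and 34.8% in the controls and between 16.9% and 17.8% in the knockouts, and the bands of Ehf, Elf3 and Etv4 are wider in the knockouts.

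Genes that act with or on ETS factors were for the most part not called. On a list of 18 partners and regulators, all tested, 1 rose and 2 fell, against 29.6% and 24.4% of all tested genes. The median log2 fold change of the list was -0.03. Cic, which codes for Capicua, the repressor of the PEA3 genes, stood at 11.1, 13.4 and 18.3 FPKM in control epidermis and at 14.0, 14.4 and 13.2 FPKM in knockout epidermis (log2 fold change -0.01, adjusted p in limma 0.959). Cop1 and Det1, whose products take part in the degradation of PEA3 proteins, had log2 fold changes of -0.27 and -0.18, and neither passed in limma (adjusted p of 0.0937 and 0.135). Mapk3, which codes for a kinase of the pathway, had a log2 fold change of -0.23 and was not called by limma (adjusted p of 0.106). These values speak of transcripts only, since Capicua, Cop1 and ERK act through protein.

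Runx1, which codes for a DNA-binding partner of Ets1, was the member of that list that rose. It stood at 1.01, 1.43 and 1.41 FPKM in control epidermis and at 8.86, 6.48 and 7.38 FPKM in knockout epidermis, without overlap (log2 fold change 1.90 ± 0.14, SE; adjusted p in limma 9.07e-05). Id2 and Jun fell by 0.38 and 1.32 on the log2 scale. Neither call was firm: that of Id2 was lost without Control replicate 1 or 2 or without any 1 of the knockout samples (adjusted p of 0.0708 to 0.115). That of Jun was lost without Control replicate 1, 2 or 3 or without Spry1_KO replicate 2 (0.0521 to 0.0830). Without Control replicate 3, 2 genes of the list rose and 4 fell, and without Control replicate 1 or 2 or Spry1_KO replicate 2 none fell. With TPM scaling 8 genes of the list fell, and with limma-voom on recovered reads 7.

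On a list of 14 genes described as under ERK, Capicua or PEA3 control, 12 were tested, 5 rose and 2 fell, with a median log2 fold change of 0.52. Over all tested genes 54.0% were called, 29.6% higher and 24.4% lower, so these counts by themselves do not mark the list out. Phlda1, a target of ERK signalling, stood at 1.94, 1.44 and 0.954 FPKM in control epidermis and at 10.2, 12.7 and 10.5 FPKM in knockout epidermis (log2 fold change 2.33, adjusted p in limma 8.78e-05). Dusp6, the phosphatase that turns off ERK, stood at 12.6, 22.7 and 31.6 FPKM in control epidermis and at 104, 67.4 and 84.6 FPKM in knockout epidermis (log2 fold change 1.96, adjusted p in limma 0.00231). In both genes the groups did not overlap. Dusp4, Ier3 and Spred1 rose by 0.90, 0.84 and 0.48 on the log2 scale, while the feedback inhibitors Spry2 and Spred2 fell by 0.93 and 0.49. The count of risen genes was 3 under TPM scaling, where Spred1 did not pass (adjusted p of 0.127). Leaving out Control replicate 2, or a single knockout sample in turn, cost Spred2 its call and left 1 fallen gene.

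Immediate early genes, which ternary complex factors switch on, had wide spreads. Fos stood at 726, 920 and 1655 FPKM in control epidermis and at 592, 395 and 89.9 FPKM in knockout epidermis, lower in all 3 knockout samples but not past the threshold (adjusted p in limma 0.0533). Egr1 averaged 252 and 132 FPKM with overlapping groups (adjusted p in limma 0.119). Fosl1 read 0.900 and 1.41 FPKM in Control replicates 1 and 2 but 22.3 FPKM in Control replicate 3, against 13.6 to 28.8 FPKM in the knockouts. Control replicate 3 was also the control with the lowest Ehf and the highest Etv4 and Etv5.

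A list of 14 genes with ETS sites described in epithelia held 10 tested genes, with a median log2 fold change of 1.75. Of these, 8 rose and 1 fell, against 29.6% and 24.4% of all tested genes. The count of risen genes on this list was 6 under TPM scaling and 7 or 8 under the other alternatives. The list was compiled with the large rise of the Sprr genes already known, so its direction is no independent evidence. Sprr1b and Sprr2a1, of the cornified envelope, had the largest values (log2 fold changes of 9.18 and 6.77), and close copies make the share of Sprr2a1 uncertain. Lcn2, an antimicrobial lipocalin that neutrophils carry as well, stood at 0.586, 1.88 and 0.802 FPKM in control epidermis and at 7.08, 7.29 and 7.67 FPKM in knockout epidermis. The metalloprotease genes parted: Mmp9 fell from 14.5 to 0.967 FPKM (log2 fold change -2.97, adjusted p in limma 7.67e-05), whereas Mmp13 rose from 0.0132 to 3.28 FPKM (2.04, adjusted p in limma 0.000482). Sprr1b and Mmp13 averaged under 1 FPKM in the controls and Mmp9 in the knockouts, so each reached the tested set only through the group where it is high. Their calls and the counts of the list are a description.

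**Figure D4:**
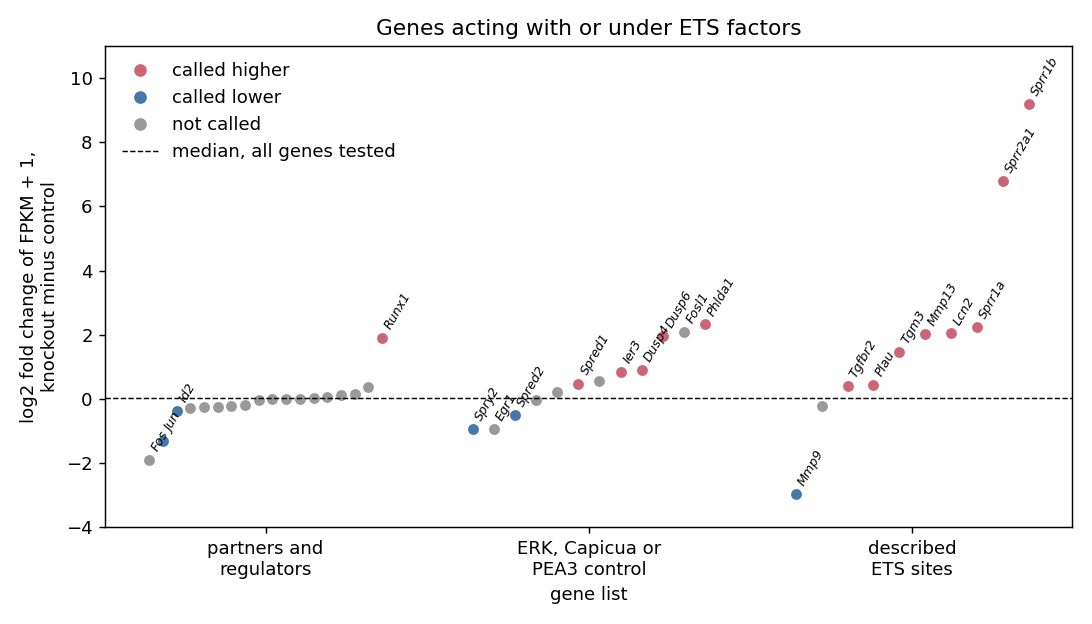
Log2 fold change of FPKM + 1, knockout minus control, for each tested gene of 3 lists, coloured by the limma call at an adjusted p of 0.05. Most of the 18 partners and regulators lie near 0, with Runx1 at 1.90, while 8 of 10 genes with described ETS sites lie above 0 and are called higher. Over all tested genes 29.6% are called higher and 24.4% lower.

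The genes whose profiles over the 6 samples came closest to those of the risen factors were sought among all tested genes by the root mean square difference of log2(FPKM + 1) values centred on the control mean. For Elf3 they were Sprr2f, Cdhr1 and Igfbp2, at differences of 0.20, 0.20 and 0.27. Sprr2f was listed at 0 in all controls and read 14.9, 10.7 and 15.1 FPKM in the knockouts. For Ehf they were Sprr1a, Otud7a and Il1f9, at 0.24, 0.26 and 0.27. All 3 shared with Ehf a control order in which replicate 2 was highest and replicate 3 lowest: Sprr1a read 169, 243 and 80.2 FPKM in the controls. The search itself favours such a shared order, so it is no separate result.

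For Etv4 the nearest were Cxcl1, Porcn and Lce3a, at differences of 0.12, 0.22 and 0.23. Cxcl1, a neutrophil chemokine, read 10.06, 10.02 and 5.67 FPKM in the knockouts, with the lowest value in the same sample as for Etv4. For Etv5 they were Ly6a, Slc1a5 and Krt90 (0.09 each), and for Elk3 they included Nqo1 and Bak1 (0.06 and 0.09). With 6 samples in 2 groups, and 54.0% of the genes called, a close profile is in large part a matching fold change, and it says nothing of shared control. A match in single samples is likewise selected by the search. Sprr2f, Cdhr1, Otud7a, Cxcl1, Lce3a and Krt90 averaged under 1 FPKM in the controls and reached the tested set only through the knockouts.

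Changing the processing left the calls of the 6 called ETS genes in place. Over 15 alternatives for each gene, all 90 values kept the direction and the side of the threshold. Log2 fold changes ran from 3.62 to 5.34 for Elf3, 2.70 to 3.35 for Etv4, 1.42 to 2.41 for Ehf, 1.74 to 2.46 for Elk3, 1.25 to 1.59 for Etv5 and -1.11 to -0.75 for Ets2. The largest values of Elf3, Etv4 and Elk3 came from limma-voom on recovered reads, where no 1 is added. Ets1 passed under none of the 15, with values from -0.18 to 0.22.

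**Figure D5:**
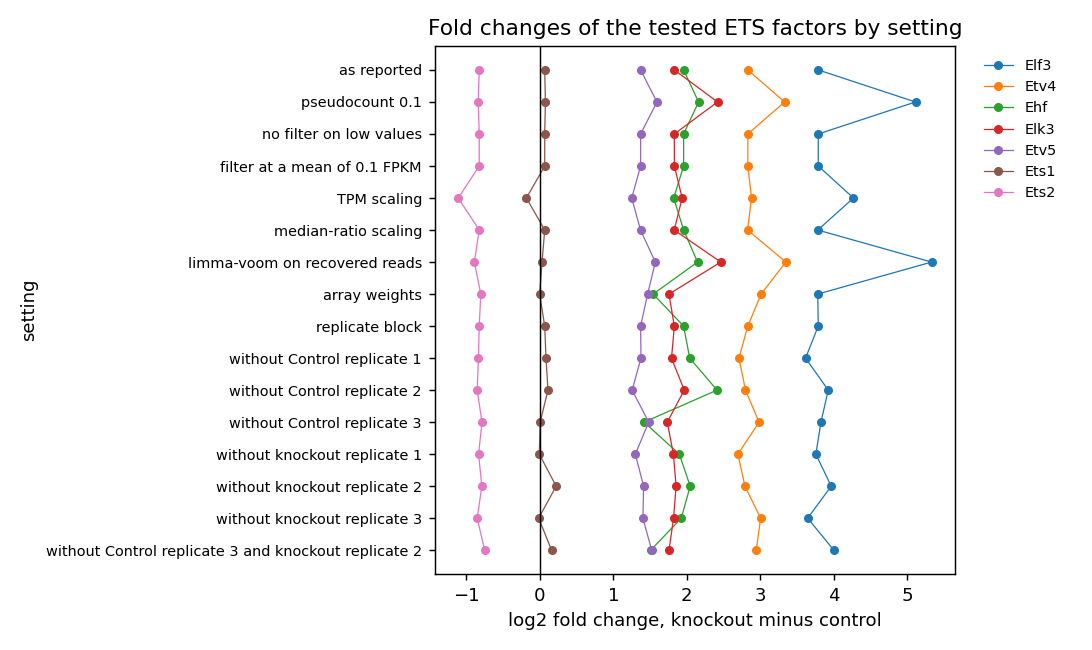
Log2 fold change, knockout minus control, of the 7 tested ETS factor genes (1 line of points per gene) as reported and under each of 15 alternatives of scaling, filter, model and samples. Elf3 stays highest, between 3.62 and 5.34, and Ets2 stays below 0 in all of them.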

How the data were processed

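The authors deposited 1 table of FPKM values with 1 column per sample. HISAT2 2.0.5, featureCounts 1.5.0-p3 and the build GRCm38 are named per the submitters' processing notes. Neither the annotation release nor strandedness, filters or the formula is given in the sources used here. Groups come from the sample titles. Multiplied by exon length from GENCODE M21, 97.0% to 97.3% of values were whole multiples of 1 unit in each sample, within 0.1 reads (by chance 20%), and these are the recovered reads. The read total that this unit implies was 99.1%, 98.8% and 103% of the recovered reads in Control replicates 1, 2 and 3. In the knockouts it was 95.6%, 90.7% and 88.1%, so their FPKM values are raised against division by the recovered reads. No pair of replicates agreed within sampling noise, and Control replicate 3 stood furthest from the other controls. The mean chi-square per gene of the recovered reads was 12.0 between Control replicates 1 and 2. It was 68.2 and 60.6 between Control replicate 3 and Control replicates 1 and 2, and 27.8 to 30.5 between knockout samples.

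limma 3.58.1 (R 4.3.3) with a trend was fitted to log2(FPKM + 1), genotype as the only term, two-sided, for genes whose mean reached 1 FPKM. A fold change on this scale understates low genes. The fit was also run on simulated reads with a fixed spread and few changed genes. That setting differs from these data, where 54.0% of the tested genes were called, so no support is drawn from it. The factors, the lists and the tests were chosen with earlier results of these data known. Named were Spry1, the 10 factors, other ETS genes past the threshold, up to 4 genes per list with the lowest p (up to 2 of the highest mean where none passed), and the 3 nearest profiles of each factor with a log2 fold change of at least 1. Several of these genes, most of the cell type markers among them, are not reported here. Further genes were named after their values were seen, namely Cic, Cop1, Det1, Mapk3, Fos, Egr1, Fosl1, Dusp4, Ier3, Spred2, Mmp13, Csf3r, Ly6g, Mpo, Elane, overlapping genes and the ETS genes that did not pass or were not tested. Alternatives were other pseudocounts, filters, scalings, limma-voom with trimmed-mean factors, array weights, a replicate block and left-out samples. Python 3.11.15 and matplotlib 3.10.9 made the figures.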

Additional observations from a re-analysis of the deposited data

How the results depend on the processing

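Over all genes, TPM scaling gave 2055 higher and 4470 lower calls in place of 3736 and 3079, and limma-voom on recovered reads gave 3479 and 3402. The counts for the 10 ETS factors, 5 higher and 1 lower, were the same under all 15 alternatives. Among the other ETS family genes, 1 was higher with no filter, with a filter at 0.1 FPKM, with array weights, and with Control replicate 3 and Spry1_KO replicate 2 both left out, 0 to 2 with 1 sample left out, and 7 were lower under TPM scaling. Of the partners and regulators 2 were higher with array weights and without those 2 samples, and 1 to 2 with 1 sample left out. Lower were 0 with no filter, 1 with a filter at 0.1 FPKM, 8 under TPM scaling, 7 in limma-voom, 5 with array weights and 0 to 4 with 1 sample left out. Of the genes under ERK, Capicua or PEA3 control 3 were higher under TPM scaling. Lower was 1 with no filter and without those 2 samples together, and 1 to 2 with 1 sample left out. The cause of these shifts was not tested. Of 743 values for other named genes, 51 changed their side of the threshold.

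Deviations from the group mean showed no positive correlation between samples with the same replicate number (-0.0981, -0.111 and -0.125). Samples with different numbers gave -0.0431 to 0.147. With 3 samples a group these values cannot decide whether the numbers pair the samples, and the labels do not say. Whether samples with the same number were handled together was not tested. With a replicate block the partners and the ERK list each had 1 lower gene, and Etv4 kept its log2 fold change of 2.83 with an adjusted p of 0.00203. Depth limits Etv1 and Spdef, which had at most 9 and 5 reads in any sample.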

Other observations

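3 further ETS family genes lay below the level tested but had group values without overlap. Lack of overlap is common, at 64.2% of all tested genes, and the share among genes below that level is not given here. Etv2, a factor of blood and vessel development, had 20, 14 and 15 recovered reads in the controls and 2, 0 and 0 in the knockouts. Spib, a relative of PU.1, had 6, 10 and 7 reads in the controls and 44, 17 and 31 in the knockouts. Erg, an endothelial factor that neighbours Ets2 on chromosome 16, had 20, 9 and 6 reads in the controls and 5, 0 and 3 in the knockouts. Fitted with no filter, Etv2 was called lower and Spib higher in limma (adjusted p of 0.00192 and 0.0282), and Erg was not called. Reads of these genes are few, so the calls are a description. The 8 endothelial markers summed to 1.68 to 5.51 FPKM in the controls and 1.96 to 2.71 FPKM in the knockouts. Fev and Spic were listed at 0 in all 6 samples.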
